A study of Rattus norvegicus with 15 samples.

Results

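The epidermal growth factor (EGF) family signals between neighbouring cells through receptor tyrosine kinases of the ERBB group. Its ligands are made as membrane proteins that proteases cut free, and a bound receptor pairs with another and phosphorylates it, which feeds the ERK and AKT pathways. Feedback inhibitors made after receptor activation then bind the receptors and dampen the signal. In the testis these ligands and receptors are known from germ cells as well as from the somatic cells around them. The 8 members described here are the ligands Hbegf, Areg, Ereg and Tgfa, the receptors Egfr, Erbb2 and Erbb3, and the receptor inhibitor Errfi1. They were taken as every probe set whose only gene symbol in the platform annotation was one of these names, which gave 11 probe sets of the 31099 on the array, and 8 genes of the 14218 named there.

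The samples were spermatogonial stem cells of the rat, from which sperm production is renewed, held for 1 month in serum-free culture with GDNF (glial cell line-derived neurotrophic factor), which signals through RET. The 5 groups were a control kept with GDNF, cells deprived of GDNF for 18 h, and cells deprived for 18 h to which GDNF was then returned for 2, 4 or 8 h. Each group had 3 arrays from independent cultures, 15 in all; rat strain, rat age and the presence of feeder cells are not given in the labels. A group kept without GDNF up to the times of return is not analysed here, so the time since withdrawal and the return of GDNF cannot be told apart. Values are intensities on a linear scale or their log2, as stated, and a probe set was tested where it reached 16 (log2 of 4) on at least 3 arrays. A change was called at an adjusted p under 0.05 in limma, with Benjamini-Hochberg adjustment over all 15856 tested probe sets.

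Per array, 50.1% to 50.4% of probe sets were at or over 16, and precision is limited by there being 3 arrays a group. Of 18 markers of undifferentiated spermatogonia 10 were tested, among them Ret, Id4, Etv5, Bcl6b, Epcam and Itga6. Their summed intensity was 26665 to 31504 on the withdrawal and return arrays and 34902 to 38015 on the control arrays. The sum leans on Epcam and Itga6, the brightest of the 10 (means of 9293 and 8693). The response of each marker to GDNF is not given here, so the sum is not a count of cells. Gfra1, Nanos3 and Tspan8 were under 16 on all arrays and Lin28a did not pass the filter. Of 20 mesenchymal markers, a list that fits fibroblasts or feeder cells, 12 were tested. Array deviations from their group means were summarised by their main principal component. On it, replicate 1 of the control, of withdrawal and of 4 h return scored lowest (-0.323, -0.487 and -0.394). Some results that use these arrays, but not all, are also given without them. The component held 25.2% of the variance within groups. At its other end, replicate 2 of the control (0.435) and replicate 3 of withdrawal (0.405) scored highest. Every single array was also left out in turn. In bulk RNA of this kind, fewer cells of a type and less RNA per cell cannot be told apart.

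The sequences before the annotated starts of the 2 members that changed are shown, and no link to their expression was tested. They come from RefSeq on build GRCr8, which had entries for 6 of the 8 members, read 5′ to 3′ on the strand of the gene. Capitals mark matches to any of 8 motifs searched on both strands of the 250 bases before each start. For Hbegf only 30 bases around its single match are printed, at chr18:28390396-28390425 on the minus strand, 205 to 176 bases before the annotated start. An ATG lies 29 bases after that start, and whether longer transcripts begin within the 250 bases was not tested. For Errfi1 all 250 bases are printed, at chr5:166606591-166606840 on the plus strand.
Hbegf: ggctgattggccTGACGgaccttcaagggc
Errfi1: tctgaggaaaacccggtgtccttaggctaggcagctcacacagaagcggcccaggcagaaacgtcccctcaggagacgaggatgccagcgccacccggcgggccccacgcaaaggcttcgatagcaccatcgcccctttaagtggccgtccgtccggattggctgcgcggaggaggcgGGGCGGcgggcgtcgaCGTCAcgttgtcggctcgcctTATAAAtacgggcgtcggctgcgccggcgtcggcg
In Hbegf the match was TGACG, the core of the cAMP response element, which 18.2% of 33469 RefSeq rat promoters of the same length hold. Errfi1 held that core on the opposite strand, 56 to 52 bases before its start, as well as the SP1 motif GGGCGG (30.5% of promoters) and the TATA motif TATAAA (12.9%), which lay 35 to 30 bases before the start. The full cAMP response element TGACGTCA, which contains the core on both strands, was present in Areg and in 1.59% of promoters. The ETS motif CCGGAAG was found in Egfr and in 7.27% of promoters. SP1 matches were also present in Areg, Tgfa, Egfr and Erbb2, and a TATA match in Areg. No matched member held the AP-1 motif TGANTCA (6.34% of promoters), the EGR motif GCGNGGGCG (4.29%) or the CArG box (1.5%). GC content was 67.6% in Hbegf and 67.2% in Errfi1, against a median of 51.2% over all promoters. These matches describe letters in a window and not binding.

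Most of the family was dim in these cultures. The 8 probe sets of Areg, Ereg, Tgfa, Egfr and Erbb3 were under 16 on all 15 arrays, as were 47.5% of the 31042 probe sets other than controls. They were not tested, and their values are not well above background. Areg, which encodes amphiregulin, had a lowest, median and highest intensity of 4.92, 5 and 5.76. Ereg, which encodes epiregulin, had 4.97, 5.05 and 5.24. The probe sets of Tgfa, transforming growth factor alpha, had medians of 6.44 and 3.98, with highest values of 6.69 and 4.08. The values of these ligands lay within a narrow band over all 5 groups, with the highest array 1.04 to 1.17 times the lowest.

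Among the receptors, Egfr binds all 4 of these ligands. Its 3 probe sets had medians of 4.73, 4.07 and 8.03, and the highest value of any of them was 9.01. Erbb3, a receptor of the neuregulins with a weak kinase of its own, ran between 4.2 and 4.72 with a median of 4.66. Erbb2, the partner that binds no known ligand and pairs with the other receptors, was over 16 on every array, between 260 and 342. Errfi1, which encodes MIG6, an inhibitor that binds the kinase domain of the receptors, was the brightest probe set of the family by its median of 1475. Intensities of different probe sets are not on one scale of transcript number, so this order describes signal only.

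**Figure D1:**
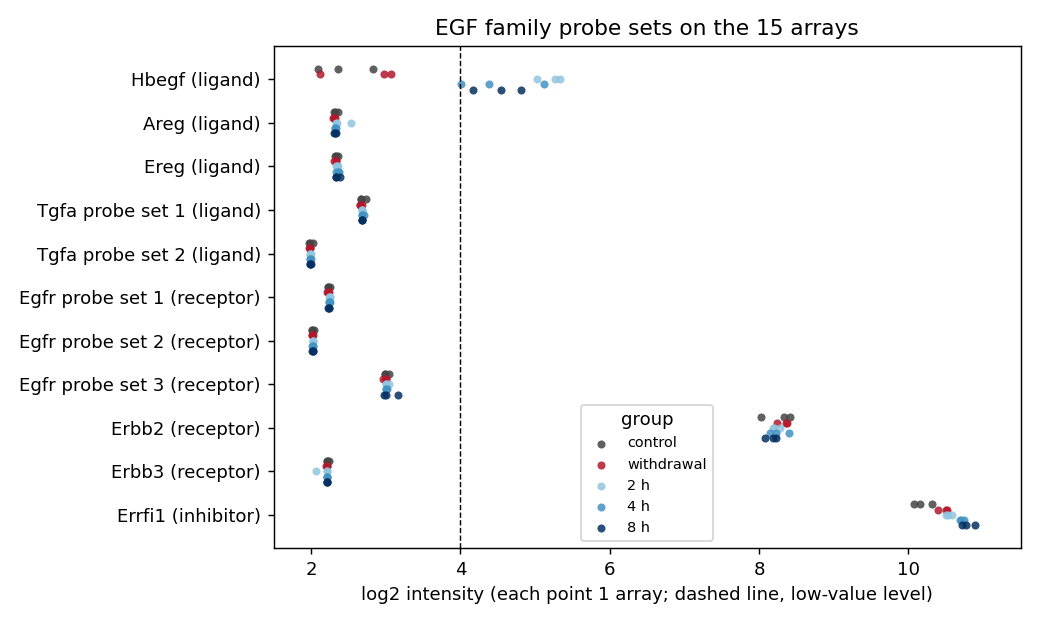
Log2 intensity (horizontal axis) of the 11 EGF family probe sets, with 1 point per array and colours for the 5 groups; the dashed line is the low-value level of 4. The points of 8 probe sets lie left of the line on all 15 arrays, those of Erbb2 and Errfi1 lie right of it, and those of Hbegf cross it.

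Hbegf encodes heparin-binding EGF-like growth factor, a ligand of EGFR and ERBB4. Over the time course its intensities were 5.13, 7.11 and 4.27 in the control, 4.35, 7.87 and 8.38 after withdrawal, 32.4, 38.5 and 40.1 at 2 h of return, 16.1, 20.9 and 34.7 at 4 h, and 23.2, 28 and 18 at 8 h. All 9 arrays with GDNF returned were over 16 and all 6 others were under it, with no overlap between these 2 sets. Because Hbegf passed the filter through the return groups alone, its place among the tested probe sets already required it to be high there.

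The Hbegf level at 2 h of return was 37 ± 4.08 and after withdrawal 6.87 ± 2.19 (SD, n = 3 each), a log2 change of 2.48 ± 0.29 (SE; adjusted p = 2.91e-05), when 11.9% of all tested probe sets were called higher. Since the withdrawal values were not well above background, the fold is given as a bound: setting them at 16, the level at 2 h was at least 2.3-fold higher. At 4 h the mean was 23.9 ± 9.62 and the log2 change from withdrawal 1.78 ± 0.29 (adjusted p = 0.000272), at least 1.42-fold higher, with 14.6% of tested probe sets called higher. At 8 h the mean was 23.1 ± 5.03, the log2 change 1.78 ± 0.29 (adjusted p = 0.000371) and the bound again 1.42-fold, with 9.62% called higher. That split leans on scaling: 38.5% of the calls at 8 h against withdrawal were higher as deposited and 50.6% with arrays centred on their median. With every value under 16 set to 16, the change at 2 h stayed called (1.20, adjusted p = 0.00088), while those at 4 h (0.50, adjusted p = 0.0825) and 8 h (0.50, adjusted p = 0.0947) did not.

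Hbegf after withdrawal was 6.87 ± 2.19 and in the control 5.5 ± 1.46 (SD, n = 3 each), and the arrays overlapped (adjusted p = 0.52). All 6 values are under 16, so no fold between these groups is given. The comparisons with the control share their return arrays with those above. The control values were also not well above background, so the fold is again a bound. Setting them at 16, Hbegf was at least 2.3-fold higher at 2 h and at least 1.42-fold higher at 4 h and 8 h. For the values as deposited, and not for these bounds, the adjusted p was 6.58e-06 at 2 h, 0.000128 at 4 h and 0.000281 at 8 h. These comparisons called 22.6%, 21.6% and 12.3% of tested probe sets in either direction. With values under 16 set to 16, 2 h against the control stayed called (adjusted p = 0.000813) and 4 h (adjusted p = 0.102) and 8 h (adjusted p = 0.138) did not. Between return times, where 13.7% (4 h against 2 h) and 9.66% (8 h against 4 h) of tested probe sets were called, Hbegf at 4 h minus 2 h was -0.70 (adjusted p = 0.123) and 8 h minus 4 h was 0.00 with an interval of -0.61 to 0.61 (adjusted p = 1). With values under 16 set to 16, the difference of 4 h from 2 h was called (-0.70, adjusted p = 0.0383). No array at 2 h or 4 h was under 16, so this setting changed only the Hbegf values of control and withdrawal. Those groups enter this test only through the shared estimate of spread. Without replicate 3 of 4 h return, and with no value reset, 4 h minus 2 h was -1 (adjusted p = 0.0332). With single arrays left out in turn this difference ran from -1 to -0.45. It was called in 3 of 25 alternatives, with adjusted p up to 0.385 in the others.

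Mesenchymal markers moved with Hbegf between cultures of the same group. The mean log2 intensity of the 12 tested markers was 7.57 to 7.85 at 2 h, 7.71 to 8.16 at 4 h and 8.23 to 8.5 at 8 h of return, 7.7 to 8.46 after withdrawal and 8.08 to 8.47 in the control. Their summed intensity ran from 2896 to 3294 at 2 h, 3167 to 4088 at 4 h and 4463 to 5388 at 8 h, against 3260 to 5257 after withdrawal and 4229 to 5509 in the control. The other 8 listed markers, Col6a1, Col6a2, Pdgfrb, Lum, Postn, Lox, Prrx1 and Thbs2, were under 16 on all arrays. Within groups the Hbegf log2 intensity changed by 1.55 per unit of the marker mean (adjusted p = 0.000436), a slope called for 2.83% of tested probe sets. For Erbb2 this slope was -0.30 (adjusted p = 0.272) and for Errfi1 0.21 (adjusted p = 0.183).

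The marker mean was lowest in the 2 h group, where Hbegf was highest. Its 2 h arrays (7.57 to 7.85) did not overlap those of the control (8.08 to 8.47), so marker mean and group are partly tied. With the marker mean as a covariate, Hbegf stayed called higher than withdrawal at 2, 4 and 8 h of return, with no size given because the withdrawal values were under 16. Under the same covariate 4 h minus 2 h was -1.12 (adjusted p = 0.000151) and 8 h minus 4 h was -0.59 (adjusted p = 0.0392), both uncalled without it. The slope behind these values was fitted on all 15 arrays, 6 of them with Hbegf under 16. Without replicate 1 of control, withdrawal and 4 h return together, the calls against withdrawal were kept at 2 h (adjusted p = 0.000141), 4 h (adjusted p = 0.00093) and 8 h (adjusted p = 0.0017). Which cells of the culture carried the Hbegf signal was not tested.

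**Figure D2:**
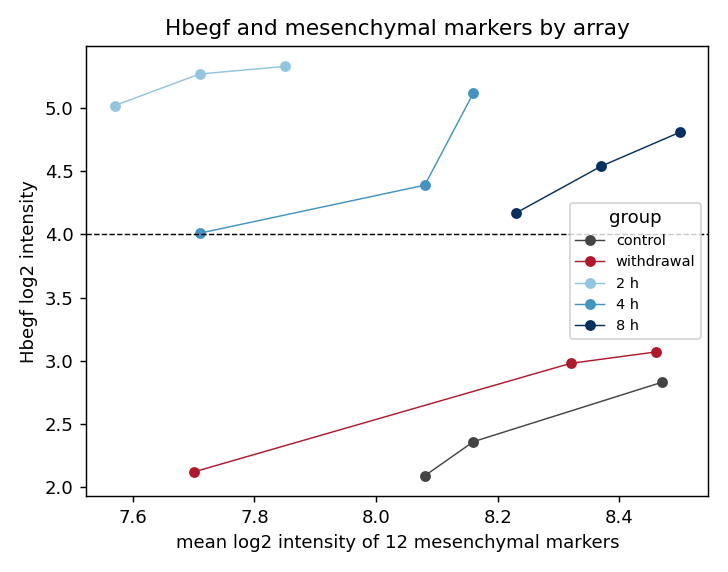
Hbegf log2 intensity (vertical axis) against the mean log2 intensity of 12 mesenchymal markers (horizontal axis), 1 point per array, with lines joining the 3 arrays of a group; the dashed line is the low-value level of 4. The 9 return arrays lie above the line and the 6 withdrawal and control arrays below it, at overlapping marker levels, and the 2 h arrays have the highest group mean of Hbegf and the lowest of the markers.

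Over the time course Erbb2 had intensities of 342, 260 and 322 in the control, 334, 328 and 303 after withdrawal, 311, 292 and 294 at 2 h of return, 339, 283 and 298 at 4 h, and 299, 291 and 271 at 8 h. Its means ran from 287 ± 14.6 at 8 h to 322 ± 16.4 after withdrawal (SD, n = 3 each). It passed no comparison and its F test over the 5 groups gave an adjusted p of 0.586, when 49.6% of tested probe sets passed. The log2 difference of withdrawal from control was 0.07 with a 95% interval of -0.13 to 0.27. The widest gap was 8 h return against withdrawal, -0.16 with an interval of -0.37 to 0.04 (adjusted p = 0.224), where the arrays did not overlap. These intervals leave room for a change of up to -0.37 on the log2 scale.

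Errfi1 over the same course had intensities of 1081, 1271 and 1137 in the control, 1356, 1454 and 1452 after withdrawal, 1475, 1447 and 1536 at 2 h of return, 1649, 1674 and 1719 at 4 h, and 1691, 1899 and 1748 at 8 h. Every array without GDNF or with GDNF returned was above every control array, and the arrays at 4 and 8 h were above all those of withdrawal. Withdrawal averaged 1420 ± 56.1 and control 1163 ± 97.4 (SD, n = 3 each), a rise of 0.29 ± 0.06 on the log2 scale (SE; 1.22-fold, adjusted p = 0.00242), with 11.4% of tested probe sets called higher. Marker lists split the arrays in the same way in part. The spermatogonial sums, given above, were lower on the withdrawal and return arrays than on the control arrays. The mean log2 intensity of 4 Sertoli markers was also lower there, 6.95 to 7.33 against 7.5 to 7.52 in the control. The summed intensity of these Sertoli markers went the other way, 3338 to 3521 in the control and 3707 to 3974 after withdrawal. This sum was also higher than the control at 2 h (3592 to 3711) and 8 h (3837 to 3958) of return. At 4 h (3380 to 3586) it overlapped the control. The part of either marker list in the Errfi1 result was not tested.

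After GDNF was returned, the Errfi1 means stayed above that of the control. At 2 h it averaged 1486 ± 45.2, a difference from withdrawal of 0.07 with an interval of -0.06 to 0.19 (adjusted p = 0.442). At 4 h it averaged 1681 ± 35.4, higher than withdrawal by 0.24 (1.18-fold, adjusted p = 0.00545), and at 8 h 1780 ± 108, higher by 0.32 (1.25-fold, adjusted p = 0.00089). Against the control the log2 changes were 0.36 at 2 h (adjusted p = 0.000482), 0.53 at 4 h (adjusted p = 1.39e-05) and 0.62 at 8 h (1.53-fold, adjusted p = 8.14e-06). The step from 2 h to 4 h, 0.18, was not called (adjusted p = 0.0558) although the arrays did not overlap. This step was called in 5 of 25 alternatives, with adjusted p up to 0.161 in the others. Those 5 included the fits without control replicate 1, control replicate 2 or 8 h replicate 2 (adjusted p = 0.0383, 0.0244 and 0.0475). These arrays are in neither of the compared groups. From 4 h to 8 h the difference was 0.08 (adjusted p = 0.427).

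**Figure D3:**
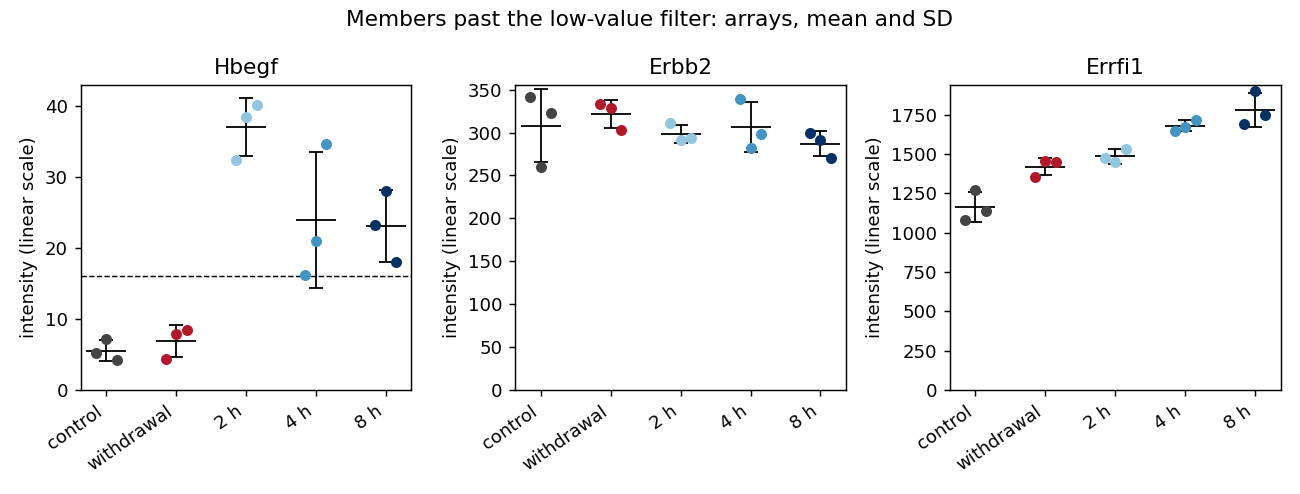
Intensity on a linear scale (vertical axes) of Hbegf, Erbb2 and Errfi1 by group (horizontal axes), with 1 point per array, horizontal bars for the mean and error bars for the SD of 3 arrays; the dashed line in the Hbegf panel is the low-value level of 16. Hbegf is highest at 2 h of return (37), Errfi1 is lowest in the control (1163) and highest at 8 h (1780), and the Erbb2 means stay between 287 and 322.

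The genes whose log2 intensity over the 15 arrays was most like that of Hbegf, among 1695 genes with group means spanning at least 0.5, were Vegfa (Pearson r = 0.95), Inhba (0.936) and Tnfrsf12a (0.889). Within groups these correlations were 0.732, 0.827 and 0.866. For Errfi1 they were Gal (0.884), Itih3 (0.88) and Rasip1 (0.86), with 0.156, -0.401 and -0.258 within groups. The genes were picked on the same 15 arrays, which also hold the variation within groups, and 6 of the Hbegf values are under 16. The values are a description.

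Of 45 other genes of the ERBB pathway, 39 had a probe set of their own and 33 were tested, and 23 of these (69.7%) passed the F test, when 49.6% of all tested probe sets did. Each listed gene counts through its brightest tested probe set, and the list was chosen with earlier results known. The shares of all include every tested probe set, so the list and all are not compared like for like. On withdrawal against control 2 rose and 6 fell (24.2%, against 21.1% of all), with a median log2 change of -0.01 for the list and 0.014 for all tested probe sets. At 2 h of return against withdrawal 4 rose and 4 fell (24.2%, against 26.1% of all), at 4 h 6 rose and 7 fell (39.4%, against 30.6%), and at 8 h 5 rose and 6 fell (33.3%, against 25.0%). The list medians were -0.03, 0.01 and 0.05, and those of all tested probe sets -0.021, -0.008 and -0.024. Listed genes thus moved in both directions in each of these comparisons. The falls numbered 2 at 2 h without replicate 3 of withdrawal or replicate 1 or 2 of 2 h return, and 3 at 8 h without replicate 3 of withdrawal or of 8 h return. The rises on withdrawal numbered 4 without replicate 1 of withdrawal or replicate 3 of 4 h return.

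Of the other ligands and the fourth receptor, Egf, Btc, Nrg2, Nrg4 and Erbb4 did not pass the filter and Epgn and Nrg3 had no probe set of their own. Nrg1, which encodes neuregulin 1, a ligand of ERBB3 and ERBB4, was the 1 tested gene of these 8, through 1 of its 8 probe sets, and was named after its values were seen. It had 33.9, 53.2 and 37.2 after withdrawal and 74.6, 80 and 55.4 in the control, a fall of 0.77 on the log2 scale (adjusted p = 0.00296) that was not called without the 3 arrays named above (adjusted p = 0.0585). At 2 h of return it differed from withdrawal by 0.46 (adjusted p = 0.0461), a call lost in 16 of 25 alternatives (adjusted p up to 0.196). At 4 and 8 h its differences from withdrawal were 0.36 (adjusted p = 0.0991) and 0.25 (adjusted p = 0.279).

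Among the proteases that release ERBB ligands and their cofactors, 6 of 9 were tested. Rhbdf1, which encodes iRhom1, a partner of the ligand-cutting protease ADAM17, had the smallest F test p of the list (adjusted p = 1.37e-07). Its intensities over the time course were 296, 263 and 319 in the control, 191, 216 and 178 after withdrawal, 323, 323 and 332 at 2 h of return, 545, 513 and 546 at 4 h, and 411, 349 and 432 at 8 h. Withdrawal was lower than control by 0.59 (adjusted p = 0.000304), with no overlap. Against withdrawal it rose by 0.75 at 2 h (adjusted p = 4.33e-05), 1.46 at 4 h (2.75-fold, adjusted p = 1.91e-08) and 1.03 at 8 h (adjusted p = 1.28e-06). Its arrays did not overlap in any of these 4 comparisons, and no alternative setting ended a call. Adam17 itself was bright, with a mean of 1548 over the arrays, and did not pass the F test (adjusted p = 0.0942). Adam10, another of these proteases, fell at 4 h of return against withdrawal (-0.36, adjusted p = 0.00429), as did its other probe set (-0.40, adjusted p = 0.0153). Cd9, a tetraspanin that binds the HBEGF precursor, fell on withdrawal against control (-0.37, adjusted p = 0.000115). It stayed lower than the control at 2 h (-0.40, adjusted p = 4.97e-05) and 4 h of return (-0.53, adjusted p = 4.44e-06). At 8 h it was also lower than the control (-0.41, adjusted p = 0.000112).

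Of the 14 genes that restrain or recycle the receptors 12 were tested. Ptpn12, a tyrosine phosphatase, had 4355 ± 71.5 after withdrawal and 5218 ± 179 in the control (SD, n = 3 each), a fall of 0.26 (adjusted p = 0.000506), and rose over withdrawal by 0.27 at 4 h (adjusted p = 0.000202) and 0.36 at 8 h (adjusted p = 2.24e-05), where its other probe set had 0.61 (adjusted p = 0.00057). Usp8, a deubiquitinase of internalised receptors, rose on withdrawal (0.23, adjusted p = 0.00381) and fell against withdrawal at 2 h (-0.28, adjusted p = 0.00102), 4 h (-0.31, adjusted p = 0.000266) and 8 h (-0.32, adjusted p = 0.000301). Its second tested probe set passed none of these comparisons and had 0.37 at 2 h (adjusted p = 0.113). Socs5, a suppressor of cytokine signalling that acts on EGFR, rose at 4 h against withdrawal (0.33, adjusted p = 0.00661). Ptprk, a receptor phosphatase, fell at 8 h against withdrawal (-0.33, adjusted p = 0.000277), through the only one of its 4 probe sets that passed the filter.

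Among the 12 adaptor and endocytosis genes, all tested, Gab1, a docking protein for PI3K and SHP2, rose on withdrawal against control (0.36, adjusted p = 0.000129). Against withdrawal it fell at 2 h (-0.22, adjusted p = 0.00427) and 4 h (-0.31, adjusted p = 0.000229). Shc1, an adaptor that links receptors to RAS, rose over withdrawal at 4 h (0.32, adjusted p = 0.000278) and 8 h (0.25, adjusted p = 0.00211). Erbin, a scaffold that binds ERBB2, rose at 2 h (0.36, adjusted p = 0.00528), 4 h (0.39, adjusted p = 0.00217) and 8 h (0.34, adjusted p = 0.00671), and Sos1, a RAS exchange factor, fell at 8 h (-0.29, adjusted p = 0.00733) while its other tested probe set was not called. Of the 12 genes named by F test, Cblb, a ubiquitin ligase for the receptors, differed by -0.25 between withdrawal and control (adjusted p = 0.0574). Its call at 2 h against withdrawal (-0.26, adjusted p = 0.0455) was lost in 16 of 25 alternatives. Likewise lost in some were the calls of Cd9 at 4 h against withdrawal (-0.15, adjusted p up to 0.156), Gab1 at 8 h against withdrawal (-0.16, up to 0.131), Shc1 on withdrawal against control (-0.16, up to 0.266) and Adam10 on withdrawal against control (-0.33, 0.0515 without replicate 2 of the control), whose other probe set was not called there (-0.19, adjusted p = 0.285).

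**Figure D4:**
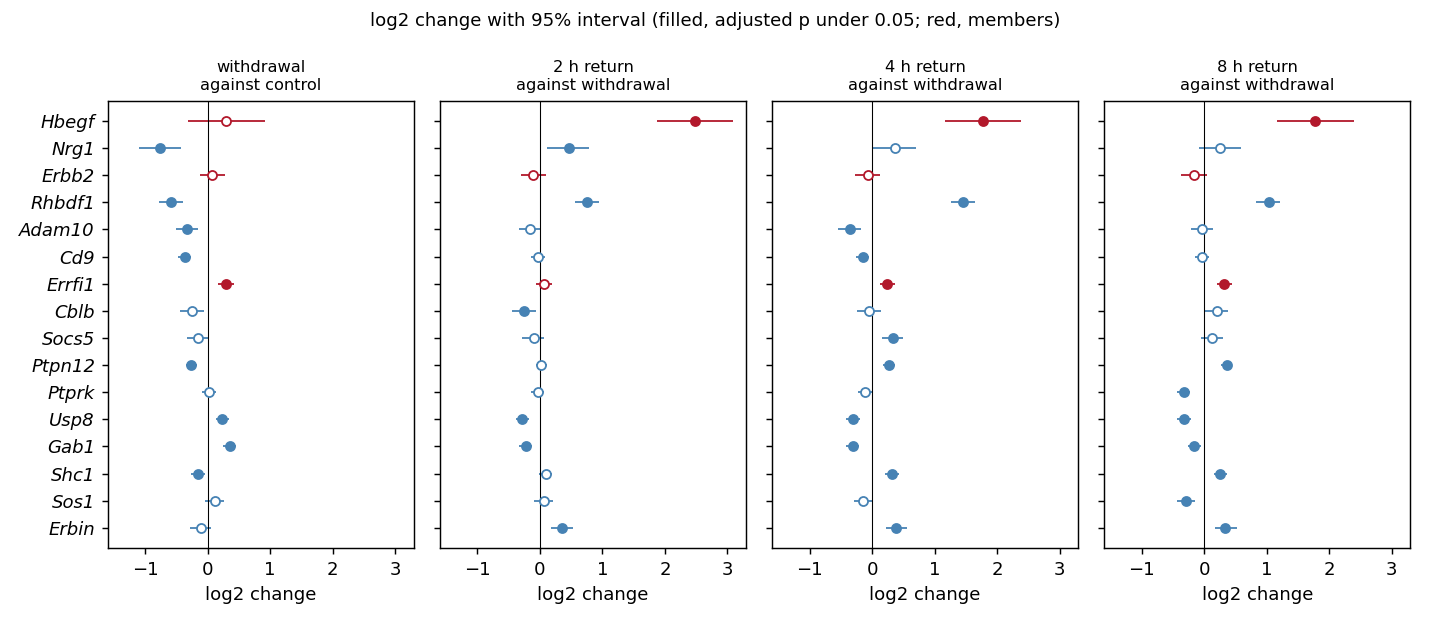
Log2 change (horizontal axes) of 3 members (red) and 13 other ERBB pathway genes (blue) in 4 comparisons, with bars for 95% intervals and filled points for an adjusted p under 0.05. Hbegf is called higher at all 3 return times, its plotted sizes resting on withdrawal values under 16, Rhbdf1 rises at all 3, and Erbb2 is not called in any panel.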

How the data were processed

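RNA from 15 samples was hybridised to single-colour arrays. The authors deposited 1 intensity per probe set and sample on a linear scale; the tools were GCRMA and Partek 6.3, per the submitters' processing notes, without role or order. GCRMA in general estimates background from probe sequence, so values near background depend on that estimate. Control probe sets (57) were dropped and log2 intensities used without renormalizing. A probe set was tested where log2 was at least 4 on at least 3 arrays (15856 of 31099). The groups were set against each other in R 4.3.3 with limma 3.58.1 (lmFit, eBayes with an intensity trend, two-sided, Benjamini-Hochberg within each of 9 comparisons), all arrays sharing 1 estimate of spread, and with an F test over the 5 groups.

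Gene symbols came from the platform annotation, updated by gene identifier through RefSeq (GRCr8): 1 symbol was given for 20832 probe sets, several for 436 (not used for names) and no symbol for 9831. Where a gene had several tested probe sets, the brightest on average stood for it. Named were all members, up to 12 pathway genes with the smallest F test p, and for each changed member the 3 genes most correlated with it. The members, lists and tests were chosen with earlier results of these data known.

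Marker lists for other cells were checked. Of 10 Sertoli markers 4 were tested (Wt1, Cldn11, Dhh, Clu), with sums of 3338 to 3974, while Amh, Gata4 and Inha were under 16 on all arrays; of 10 Leydig or peritubular markers Acta2 alone was tested; all 6 immune or blood markers were under 16 on all arrays. No 2 arrays held identical values. The fits were tested on simulated data with known changes. Alternatives were other filters, a floor, other scalings, no trend, the compared groups alone, a replicate block, the mesenchymal covariate and arrays left out. Tables and figures were made in Python 3.11.15.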

Additional observations from a re-analysis of the deposited data

How the results depend on the processing

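The 9 comparisons were rerun under 25 alternatives each, and no called value changed sign. Of the members, Erbb2 was called under none of them, and the Hbegf calls against withdrawal and control were kept in every alternative at 2 h, and at 4 and 8 h in every one but that with values under 16 set to 16. That setting left 1 called member at 4 h and at 8 h of return against withdrawal and against control, where 2 were called as reported. Hbegf passed the filter through the return groups alone. The alternatives reuse the same arrays, so they are not independent support for its calls. Between 4 h and 2 h of return no member was called as reported. With values set to 16, 1 was called (Hbegf), although no Hbegf value at 2 h or 4 h was under 16. There was also 1 with only the groups compared, with the replicate block (Errfi1, adjusted p = 0.0308) or with the mesenchymal covariate. Leaving out single arrays gave 0 to 1. The covariate gave 1 called member at 8 h against 4 h (0 as reported) and 2 on withdrawal against control (1 as reported), the added one being Hbegf with all values of both groups under 16. The replicate numbers do not mark shared cultures in the labels. Over 30 pairs of same-numbered arrays the correlation of deviations had a median of 0.0403 and was over 0.1 in 8. Over 60 pairs with other numbers the median was -0.0124, with 10 over 0.1. Of 15 arrays 6 correlated best with their own number. Over all probe sets, fitting only the groups compared gave 2166 calls on withdrawal against control (3342 as reported), 2025 at 4 h against control (3430), 1241 at 8 h against control (1953) and 892 at 8 h against 4 h (1532). The covariate gave 2355 calls at 2 h against control (3591 as reported) and 907 at 8 h against 4 h. At 8 h against 4 h, leaving out the 3 arrays together gave 1001 calls, and leaving out single arrays gave 924 to 1655, the lowest without replicate 2 of 8 h return. Centring arrays on their median moved the share of higher calls at 8 h against control to 52.3% (39.2% as reported). Members under 16 on all arrays have no measured differences, and signal over background limits what can be said of Hbegf without GDNF return.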
